A study of Mus musculus with 6 samples.

Results

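Glycolysis genes and targets of the transcription factor HIF1 were examined in cultured ILC3s, the innate lymphocytes of the intestinal wall that make interleukin 22, with and without insulin-like growth factor 1 (IGF-1). The 32 genes were chosen by name, as the glycolytic enzymes, glucose transporters and HIF1 targets among the 33157 rows of the count table. All 32 were present, and all 32 passed the filter on low counts that left 13483 genes for testing. The cells came from the small intestine of mice that were wild-type, and were sorted as CD45+ CD127+ cells with high CD90.2 and without lineage markers or KLRG1. The IGF-1 group received 200 ng/mL IGF-1 and 20 ng/mL IFN-γ (interferon-γ, a cytokine of T cells and NK cells) for 4 h. The control group received 20 ng/mL IFN-γ alone for 4 h, so both groups were exposed to IFN-γ and no culture without it was compared. Each group held 3 libraries of RNA, numbered 1 to 3. Age and number of mice are not given in the labels, nor whether replicates were separate animals or cultures. A p-value here therefore reflects variation among libraries that may be technical. In such bulk RNA, fewer cells of a type and less RNA per cell cannot be told apart.

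Glycolysis splits glucose into pyruvate in the cytosol. Its upper enzymes spend ATP to trap and cleave the sugar, its lower enzymes recover ATP and NADH, and lactate dehydrogenase turns pyruvate into lactate while restoring NAD+. HIF1 is a transcription factor whose α subunit is hydroxylated by the EGLN enzymes in the presence of oxygen and then degraded, and it activates most glycolytic genes together with genes of autophagy, protein folding and angiogenesis. In lymphocytes growth factor signals that act through PI3K and mTOR can raise HIF1α protein and glycolysis without a lack of oxygen.

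Total counts were 36171528 to 39206449 in the IGF-1 libraries and 32573713 to 38076876 in the control libraries, and the 32 genes took 0.438% to 0.529% of them with IGF-1 and 0.377% to 0.448% in controls. The sorted identity was checked against markers. Summed over 11 ILC3 genes, expression was 3996 to 4476 CPM (counts scaled to a common library size by TMM) with IGF-1 and 4046 to 4252 CPM in controls. The NK cell genes Eomes and Klra8 and the B cell gene Ms4a1 had no count in any library, and epithelial markers summed to 0.232 to 3.82 CPM with IGF-1 and 1.37 to 2.93 CPM in controls. The B cell gene Cd79b had 27.8 to 35.6 CPM with IGF-1 and 17.2 to 35.1 CPM in controls. Fibroblast and endothelial markers summed to 78.45 to 88.86 CPM with IGF-1 and 86.37 to 111.3 CPM in controls. Most of that sum was Pecam1, at 80.3 CPM with IGF-1 and 93.4 CPM in controls. T cell markers summed to 36.3 to 47.1 CPM with IGF-1 and 42.7 to 50.8 CPM in controls. Erythroid genes summed to 0.187 to 43.2 CPM with IGF-1 and 0.215 to 71.8 CPM in controls, and NK cell and ILC1 genes to 36.8 to 49.3 CPM with IGF-1 and 37.4 to 50.9 CPM in controls. The plasma cell gene Jchain stood at 519 CPM in control library 3 and at 0.103 to 0.209 CPM in the other 5 libraries.

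None of the 32 genes passed the test over all genes (edgeR's quasi-likelihood test, Benjamini-Hochberg adjusted p under 0.05), against 0.497% of all genes tested, of which 0.230% were higher and 0.267% lower with IGF-1. At an unadjusted p under 0.05, 7 of the 32 had a positive and 1 a negative log2 fold change, where the shares over all genes were 5.58% and 6.24%. The 7 were the lower-glycolysis genes Pgk1, Gapdh and Eno1, the upper-glycolysis gene Tpi1, the lactate dehydrogenase gene Ldha, the oxygen sensor gene Egln1 and the oxidoreductase gene Ero1a, and the 1 was the MYC antagonist gene Mxi1. With DESeq2 on the same counts 3 passed as higher (Pgk1, Ero1a and Gapdh) and 1 as lower (Mxi1), where DESeq2 called 4.20% of the 10864 genes to which it gave an adjusted p, 1.84% higher and 2.36% lower. With limma-voom 0 of the 32 passed, where 0.712% of all genes did, 0.267% higher and 0.445% lower. Log2 fold changes, always with IGF-1 over without, were positive in 22 of 32 with a median of 0.12, beside 48.7% positive and a median of -0.01 over all genes. Among the 2445 genes of at least 100 CPM, 1467 were positive and the median was 0.05, and among the 8 members of that abundance 7 were positive and the median was 0.26. At an unadjusted p under 0.05, 273 of the 2445 were higher and 204 lower, and of the 8 members 4 were higher and 0 lower. Leaving out IGF-1 library 3 brought the median of the 32 genes to 0.03 with 18 positive.

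**Figure D1:**
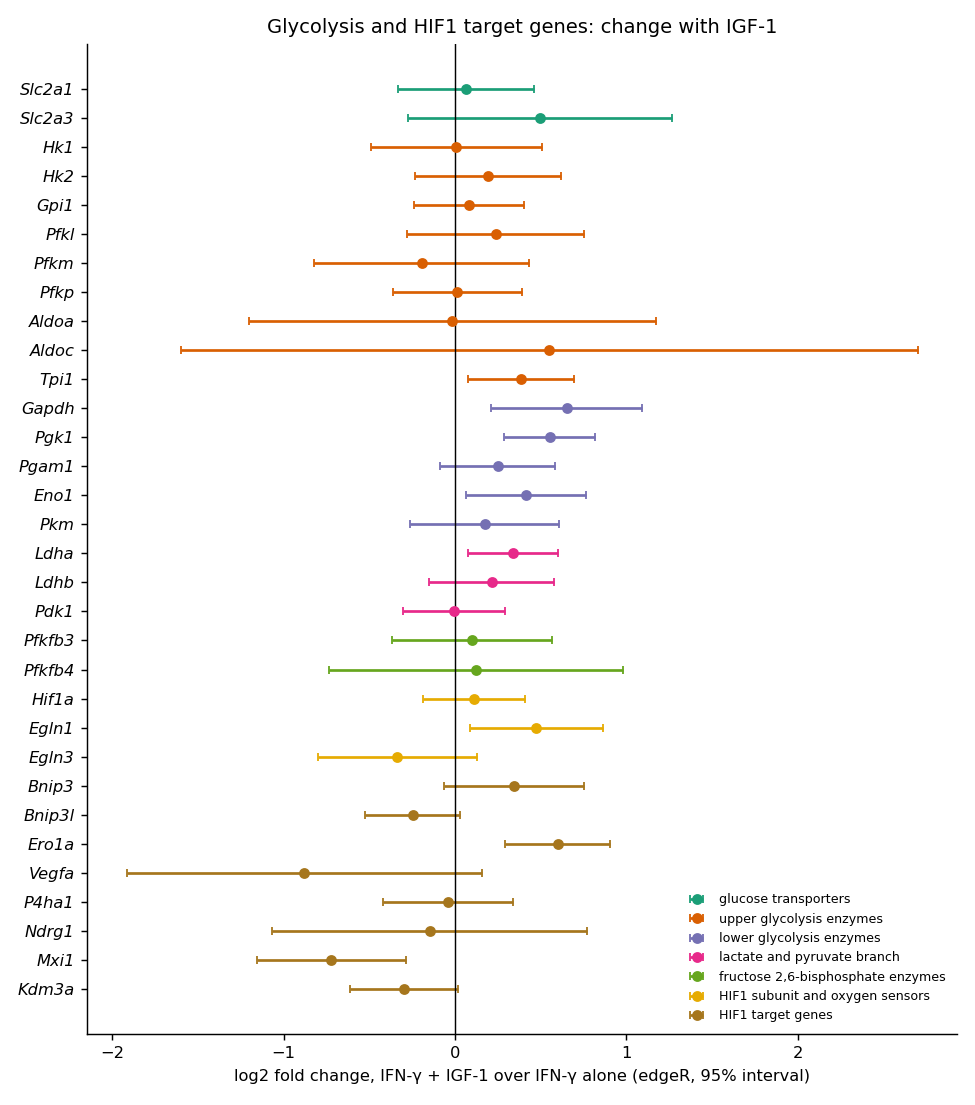
Log2 fold change of each of the 32 genes, cultures with IGF-1 over those without, with its 95% interval from edgeR, coloured by role. All 5 lower-glycolysis enzymes lie right of 0, from 0.17 to 0.65, while the 8 HIF1 targets run from -0.88 to 0.60.

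The promoters of the genes with the smallest p in each direction, Pgk1, Ero1a and Mxi1, and of Ldha, a long-known HIF1 target, are printed here because they hold the letters that HIF1 binds. HIF1 recognises ACGTG or GCGTG, and either strand was searched in the 250 bases before each RefSeq start site. A CACGTG box, the sequence bound by MYC and related factors, holds ACGTG on both strands and was counted at both positions. The sequences below read 5′ to 3′ on the gene's strand, with matches in capitals, from RefSeq on build GRCm38.p6, which is not the build of the counts (GRCm39). Pgk1 lies at chrX:106186850-106187099 on the plus strand, Ero1a at chr14:45318573-45318822 on the minus strand, the upstream of 2 listed Ldha start sites at chr7:46845554-46845803 on the plus strand and the middle of 3 listed Mxi1 start sites at chr19:53329163-53329412 on the plus strand.
Pgk1: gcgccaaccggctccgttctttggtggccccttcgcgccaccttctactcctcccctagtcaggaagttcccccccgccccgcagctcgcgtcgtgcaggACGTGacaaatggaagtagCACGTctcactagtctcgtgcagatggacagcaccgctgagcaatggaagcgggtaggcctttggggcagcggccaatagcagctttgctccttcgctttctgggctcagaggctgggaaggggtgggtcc
Ero1a: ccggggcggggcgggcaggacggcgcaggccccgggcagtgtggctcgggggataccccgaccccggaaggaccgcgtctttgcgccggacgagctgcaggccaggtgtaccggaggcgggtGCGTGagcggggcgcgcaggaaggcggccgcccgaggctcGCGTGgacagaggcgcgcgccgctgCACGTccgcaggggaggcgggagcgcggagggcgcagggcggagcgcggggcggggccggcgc
Ldha: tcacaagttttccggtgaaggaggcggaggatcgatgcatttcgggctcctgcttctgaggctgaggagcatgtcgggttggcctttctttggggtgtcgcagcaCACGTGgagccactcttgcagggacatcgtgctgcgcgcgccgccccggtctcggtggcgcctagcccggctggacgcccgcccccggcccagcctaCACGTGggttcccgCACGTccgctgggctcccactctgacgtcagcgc
Mxi1: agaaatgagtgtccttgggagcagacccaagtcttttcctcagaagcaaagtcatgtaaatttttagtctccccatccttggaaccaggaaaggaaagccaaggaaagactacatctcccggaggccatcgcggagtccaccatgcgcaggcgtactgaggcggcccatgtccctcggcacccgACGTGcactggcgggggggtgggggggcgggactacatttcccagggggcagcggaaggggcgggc
In Pgk1 the matches begin 150 and 131 bases before the start site, close to each other, and in Ero1a they begin 128, 88 and 63 bases before it. Ldha held a CACGTG box at 145 and again at 48 bases before this start site and a further match at 34, whereas the downstream Ldha start site held a single match, at 59. The bases shortly after the upstream Ldha start site were found in no Ldha transcript of the annotation GENCODE M21. Those after the downstream Ldha site and after the printed Pgk1, Ero1a and Mxi1 sites were found there in transcripts of their genes. Mxi1 held a match at 66 bases, its downstream start site held a match at 25 and its upstream start site none. A match is a description of these letters and not evidence of binding. RefSeq's table listed 29 of the 32 genes (not Slc2a3, Ndrg1 or Bnip3l), and 27 of the 29 held a match before at least 1 listed start site, where 60.7% of the 9993 tested genes with a promoter did. Counted by start site, 76.6% of the members' 47 sites held a match and 54.9% of the 12694 sites of tested genes. Genes with several listed sites count more than once here, and nearby sites, as in Aldoa and Eno1, can share the same match. ACGTG alone was found at 44.7% of the members' sites and at 21.5% of those of tested genes. Because the members were chosen as glycolysis genes and HIF1 targets, these shares describe that choice and are no separate result. The median GC content was 60.4% over the members' start sites and 59.2% over those of tested genes. Every searched word holds the letters CG, whose frequency was not compared, and the part of base composition was not tested. The 2 listed genes without a match were Gpi1 and Tpi1.

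The lower enzymes of glycolysis had positive log2 fold changes in 5 of 5 genes, with a median log2 fold change of 0.41. Pgk1, phosphoglycerate kinase, which makes ATP, had 438, 504 and 419 CPM in the IGF-1 libraries, against 309, 331 and 289 CPM in the control libraries. Every IGF-1 library lay above every control library. The log2 fold change was 0.55 (SE 0.12, 95% interval 0.28 to 0.82, adjusted p = 0.0940), a difference of 46.5%, and by p Pgk1 ranked 133 of 13483 genes. Gapdh, the dehydrogenase that yields NADH, had 66.4, 97.2 and 84.8 CPM with IGF-1, against 68.0, 42.9 and 47.3 CPM in controls. Control library 1 lay above IGF-1 library 1, so the groups overlapped (0.65, SE 0.20, adjusted p = 0.212). Eno1, enolase and the most abundant of the 32, had 989, 1309 and 1198 CPM with IGF-1, against 1056, 717 and 850 CPM in controls. Here too control library 1 exceeded IGF-1 library 1, and the log2 fold change was 0.41 (SE 0.16, adjusted p = 0.323). The mutase gene Pgam1 (0.25, SE 0.15) and the pyruvate kinase gene Pkm (0.17, SE 0.20) had intervals that included 0. For Pkm the value was 0.0055 without control library 2 and 0.39 without control library 1.

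Among the 9 upper enzymes 7 were positive, with a median of 0.08. Tpi1, triose phosphate isomerase, had 399, 482 and 458 CPM with IGF-1, against 397, 293 and 334 CPM in controls. The groups did not overlap, though IGF-1 library 1 and control library 1 were nearly level (0.39, SE 0.14, adjusted p = 0.300). Hk2, the inducible hexokinase that commits glucose to the pathway, had 41.7, 30.1 and 40.2 CPM with IGF-1, against 27.7, 30.1 and 40.1 CPM in controls. Its groups overlapped, and the 95% interval of its log2 fold change was -0.23 to 0.62. The other hexokinase Hk1 (0.01, SE 0.23), the isomerase Gpi1 (0.08, SE 0.14) and the phosphofructokinases Pfkl (0.24, SE 0.23), Pfkp (0.01, SE 0.17) and Pfkm (-0.19, SE 0.28) were spread about 0. For Hk1 and Pfkp the sign turned with a library size scaling (-0.015 and -0.014). The fructose bisphosphate aldolases were measured at few counts, with Aldoa at 3.38 ± 1.24 CPM with IGF-1 and 3.41 ± 1.98 CPM in controls (SD, n = 3 each) and Aldoc at 2.07 ± 0.88 CPM with IGF-1 and 1.42 ± 1.20 CPM in controls. The sign for Aldoa (-0.02, SE 0.54) was positive with limma-voom (0.07).

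**Figure D2:**
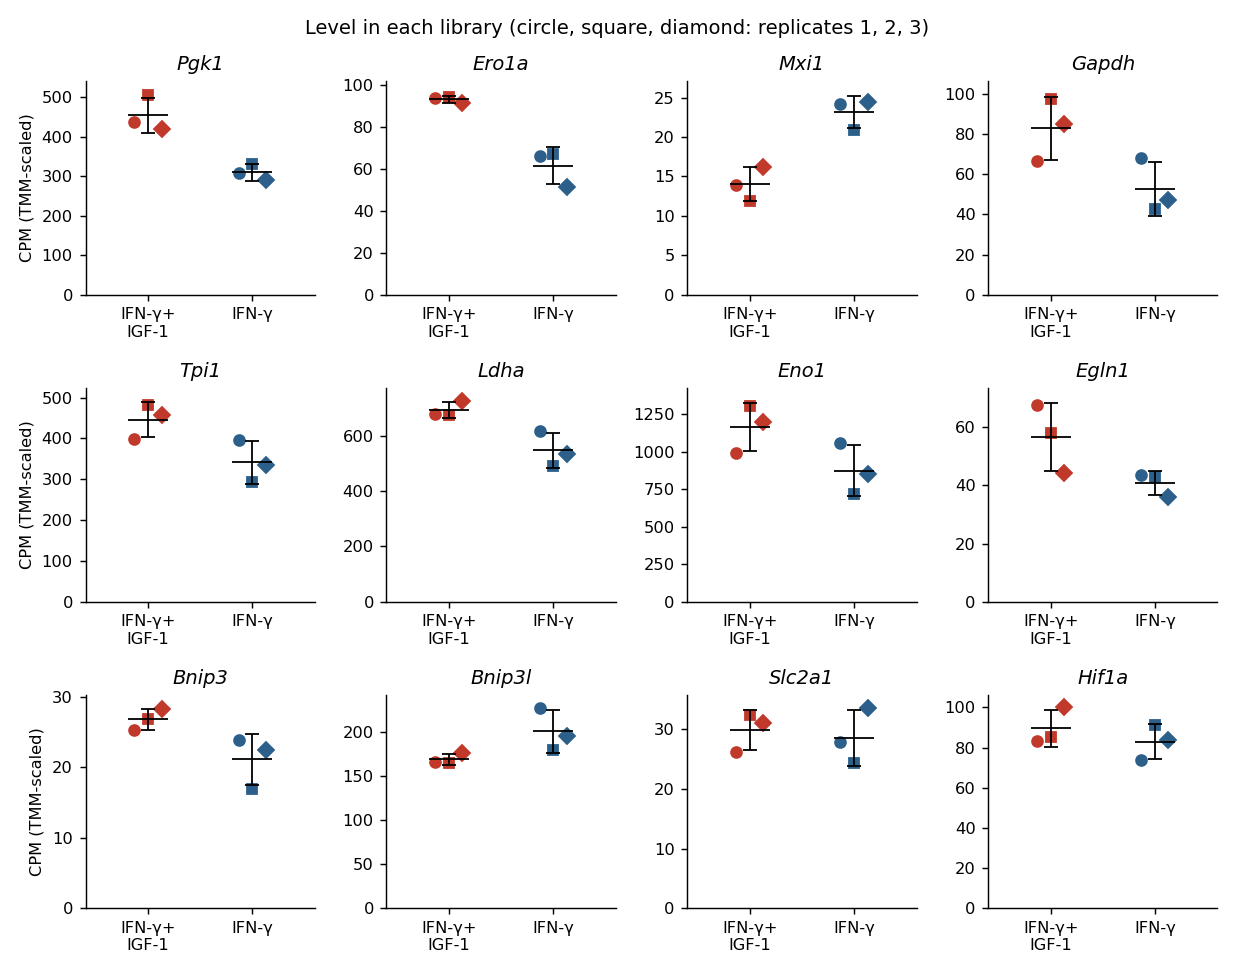
Level of 12 of the genes in each library in TMM-scaled CPM from a baseline of 0, with IGF-1 on the left of each panel and IFN-γ alone on the right. Bars give the mean and SD over 3 libraries. Pgk1, Ero1a and Mxi1 separate by group, while Slc2a1 and Hif1a overlap.

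For glucose entry and the regulators of flux, the intervals of all 4 genes included 0. Slc2a1 encodes GLUT1, the main glucose transporter of activated lymphocytes, and had 26.1, 32.4 and 31.0 CPM with IGF-1, against 27.8, 24.3 and 33.6 CPM in controls. The groups overlapped, and the interval of the log2 fold change ran from -0.33 to 0.46 (adjusted p = 0.936). Slc2a3, the gene of GLUT3, had 19.6, 12.0 and 8.34 CPM with IGF-1, against 6.74, 12.5 and 9.11 CPM in controls, and its value (0.50, SE 0.35) rested on IGF-1 library 1, without which it was 0.11. Pfkfb3, which makes the allosteric activator of phosphofructokinase, had 19.5, 23.3 and 28.2 CPM with IGF-1, against 17.5, 24.6 and 24.2 CPM in controls (0.10, SE 0.21). These groups overlapped as well, as did those of its relative Pfkfb4 (0.12, SE 0.39).

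At the pyruvate branch, Ldha, the lactate dehydrogenase subunit that favours lactate, had 678, 676 and 724 CPM with IGF-1, against 616, 491 and 535 CPM in controls. All IGF-1 libraries lay above all control libraries, with a log2 fold change of 0.34 (SE 0.12, adjusted p = 0.285). Ldhb, the subunit that favours pyruvate, was at 35.0 ± 3.76 CPM with IGF-1 and 30.2 ± 3.76 CPM in controls (0.21, SE 0.16). Pdk1, a kinase that inhibits pyruvate dehydrogenase, had 51.1, 44.2 and 51.6 CPM with IGF-1, against 51.3, 46.2 and 50.3 CPM in controls. The groups overlapped, and the log2 fold change was -0.01 (SE 0.13, 95% interval -0.31 to 0.29), with a positive sign under upper quartile scaling (0.0024). The log2 ratio of Ldha to Ldhb was 4.29 ± 0.10 with IGF-1 and 4.16 ± 0.24 in controls (SD, n = 3 each), and the groups overlapped.

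Of HIF1 itself, Hif1a mRNA for the α subunit had 83.4, 85.2 and 100 CPM with IGF-1, against 73.8, 91.3 and 83.9 CPM in controls. The groups overlapped (0.11, SE 0.13, 95% interval -0.19 to 0.41), and HIF1α protein was not measured. Egln1, which encodes the oxygen sensor PHD2, had 67.7, 58.0 and 44.3 CPM with IGF-1, against 43.7, 42.7 and 36.0 CPM in controls. Its groups did not overlap, with IGF-1 library 3 just above control library 1 (0.47, SE 0.17, adjusted p = 0.308). Egln3, the gene of the related sensor PHD3, had 30.2, 37.0 and 36.6 CPM with IGF-1, against 56.7, 31.7 and 42.6 CPM in controls, with overlap (-0.34, SE 0.21). Control library 1 was the highest, and without it the log2 fold change was -0.10. The log2 ratio of Egln3 to Egln1 was -0.69 ± 0.44 with IGF-1 and 0.06 ± 0.43 in controls, and it too overlapped, between IGF-1 library 3 (-0.27) and control library 2 (-0.43).

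Of the 8 HIF1 targets outside glycolysis, 2 were positive and 6 negative, with a median of -0.20. Ero1a, the oxidoreductase that drives disulphide bond formation in the endoplasmic reticulum, had 94.1, 94.4 and 91.4 CPM with IGF-1, against 66.4, 67.1 and 51.4 CPM in controls. The IGF-1 libraries were close to one another and all above the controls, with a log2 fold change of 0.60 (SE 0.14, 95% interval 0.29 to 0.90, adjusted p = 0.108). Mxi1, whose protein opposes MYC, had 13.9, 11.9 and 16.2 CPM with IGF-1, against 24.2, 20.8 and 24.4 CPM in controls. All IGF-1 libraries lay below all controls, with a log2 fold change of -0.72 (SE 0.20, 95% interval -1.16 to -0.29, adjusted p = 0.173).

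Bnip3 and Bnip3l, related mitophagy receptors, had log2 fold changes of opposite sign. Bnip3 had 25.3, 26.9 and 28.3 CPM with IGF-1, against 23.9, 17.0 and 22.5 CPM in controls. Bnip3l had 166, 165 and 176 CPM with IGF-1, against 228, 179 and 195 CPM in controls. In both the groups did not overlap, but neither log2 fold change passed the test (0.34, SE 0.18, adjusted p = 0.513 for Bnip3, and -0.25, SE 0.13, adjusted p = 0.480 for Bnip3l). The log2 ratio of Bnip3 to Bnip3l, in which gene length cancels between libraries, was -2.69, -2.59 and -2.62 with IGF-1, against -3.22, -3.36 and -3.09 in controls. The difference in means was 0.59. Of 8 ratios computed, this alone had groups that did not overlap. Because all IGF-1 libraries lay above the controls for Bnip3 and below them for Bnip3l, this separation was fixed and adds no further result. Kdm3a, a histone demethylase gene, was at 87.7 ± 11.8 CPM with IGF-1 and 107.7 ± 12.4 CPM in controls (-0.30, SE 0.14). Vegfa, the angiogenic growth factor, was at 3.75 ± 1.71 CPM with IGF-1 and 6.91 ± 2.77 CPM in controls (-0.88, SE 0.47). For Kdm3a and Vegfa the groups overlapped, and the 95% intervals included 0 (-0.61 to 0.02 and -1.91 to 0.16). The collagen prolyl hydroxylase subunit P4ha1 (-0.04, SE 0.17) and the stress-response gene Ndrg1 (-0.15, SE 0.41) also had intervals on both sides of 0.

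Groups that did not overlap were found for 6 of the 32 genes with IGF-1 above (Pgk1, Tpi1, Ldha, Egln1, Ero1a and Bnip3) and for 2 with IGF-1 below (Mxi1 and Bnip3l). Over all genes tested 18.0% did not overlap, 8.81% with IGF-1 above and 9.17% below. Of the 2445 genes of at least 100 CPM, 393 did not overlap with IGF-1 above and 255 with IGF-1 below. For the 8 members of that abundance these counts were 3 and 1. IGF-1 library 3 was the highest of the 6 for 13 genes and the lowest for 0, control library 2 was the lowest for 11, and control library 1 was the highest for 7. The median deviation of the 32 genes from their means was 0.23 in IGF-1 library 3 and -0.16 in control library 2 on the log2 scale, beside 0.03 to -0.03 in the other 4 libraries. The nuclear RNAs Malat1, Neat1, Kcnq1ot1 and Meg3 summed to 1677, 1160 and 2209 CPM with IGF-1, against 1578, 2860 and 2671 CPM in controls. IGF-1 library 2, with the lowest nuclear sum, had the highest Gapdh, Eno1, Tpi1 and Pgk1, and control library 2, with the highest sum, had the lowest Gapdh, Eno1 and Tpi1. Pgk1 differed, since control library 2 was the highest control, at 331 CPM beside 309 and 289 CPM. IGF-1 library 3, with a nuclear sum of 2209 CPM, had the highest Ldha, Pkm and Pgam1. Heat shock and handling genes summed to 3387, 4175 and 3758 CPM with IGF-1, against 3268, 3457 and 3215 CPM in controls, again with IGF-1 library 2 the highest. Most of that sum was Hspa8, at 2791 CPM with IGF-1 and 2373 CPM in controls. The gene of the list with the smallest p was Jun, at 62.8, 69.4 and 80.4 CPM with IGF-1, against 100.1, 111.9 and 115.7 CPM in controls (-0.62, adjusted p = 0.0928). The part of RNA quality or handling in the members' values was not tested.

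**Figure D3:**
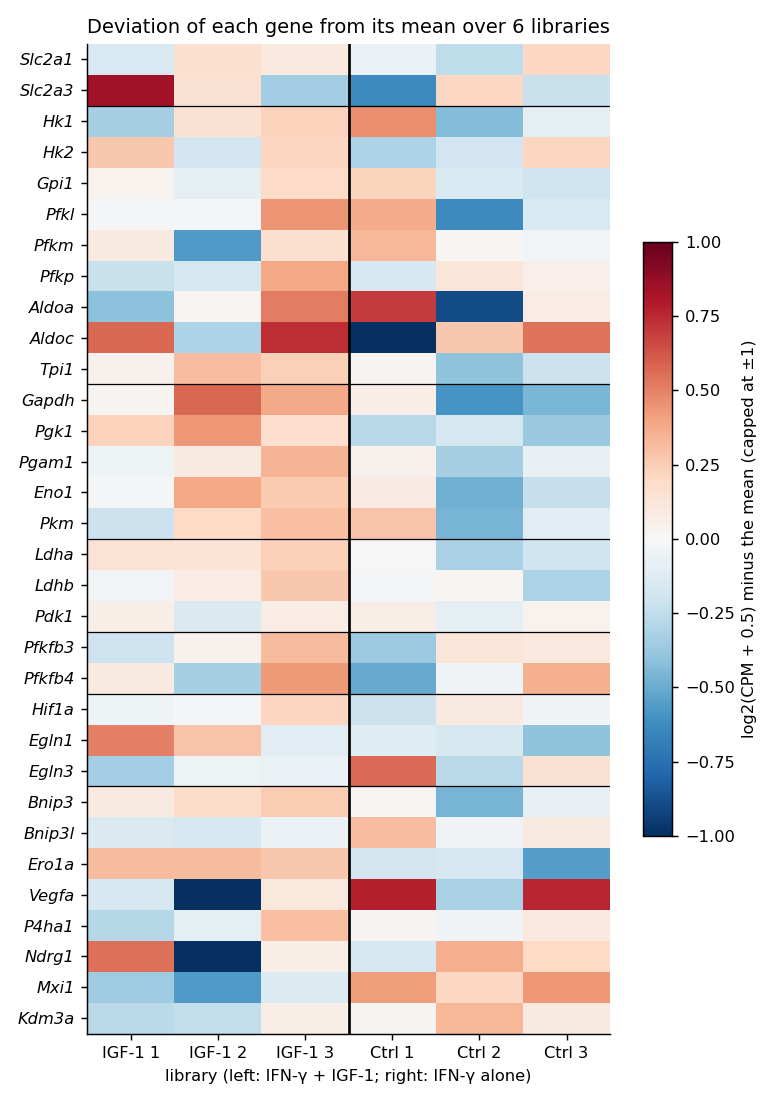
Deviation of each gene's log2(CPM + 0.5) from its own mean over the 6 libraries, capped at 1 in either direction, with IGF-1 libraries left of the black line and controls right of it. Red is above and blue below the mean. The 5 lower-glycolysis genes are above their means in IGF-1 libraries 2 and 3, and control library 1 differs from the other controls in Hk1, Pfkl, Aldoa and Pkm.

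The level of each gene per length was set out as CPM per kb of exon in GENCODE M21, with the exons of all its transcripts merged. The merged length was 4.13 kb for Gapdh and 13.4 kb for Pfkp. It can exceed that of the transcript expressed, unequally between genes, so ranks between genes are uncertain. Eno1 was highest, at 217 ± 30.2 CPM per kb with IGF-1 and 163 ± 31.8 in controls, followed by Ldha at 209 ± 8.21 with IGF-1 and 165 ± 19.1 in controls. Pgk1 stood at 202 ± 19.9 with IGF-1 and 138 ± 9.24 in controls, and Tpi1 at 162 ± 15.5 with IGF-1 and 124 ± 18.9 in controls. These neighbours overlapped over the 6 libraries, but the lowest value of Tpi1 (107) lay above the highest of the next gene, Pkm (80.3). Among paralogues, Pfkp stood above Pfkl and Pfkm, at 24.3, 12.0 and 2.88 CPM per kb over all 6 libraries, and Hk1 above Hk2 at 10.3 and 5.86. Slc2a1 stood above Slc2a3 at 8.33 and 1.57, and Ldha above Ldhb at 187 and 20.8. The aldolase gene Aldoa, at 1.17 CPM per kb, and Gapdh, at 16.4, lay below Tpi1 and Pgk1, whose enzymes act just after theirs. Both have near-identical copies elsewhere in the genome, and the deposited table held copies as rows of their own: Aldoart1 with 95 counts over all libraries beside 744 for Aldoa, and Gapdh-ps16 and Gapdhrt2 with 281 and 181 beside 14769 for Gapdh. How reads that match several copies were counted is not given in the sources used here, so the levels of Aldoa and Gapdh are uncertain. Eno1 has a copy too, Eno1b, with 1141 counts beside 222242.

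**Figure D4:**
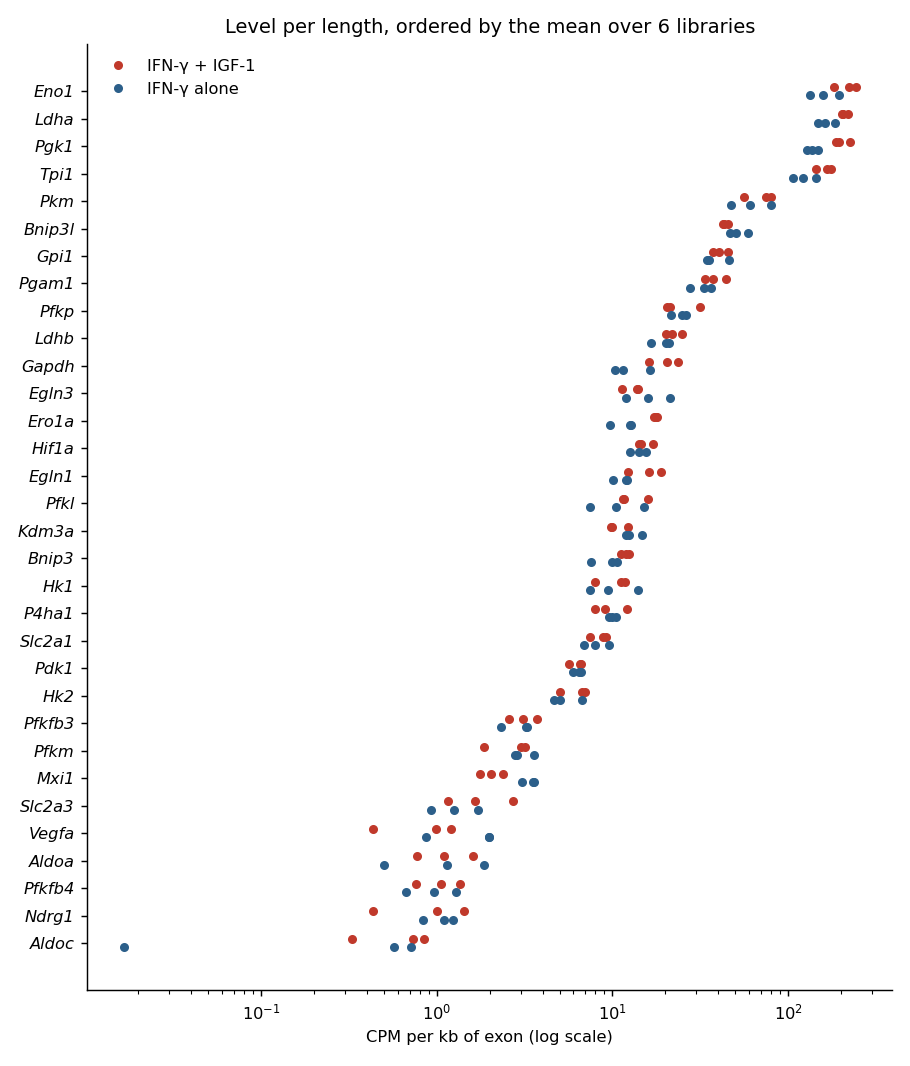
Level of each gene in each library in CPM per kb of exon on a log scale, ordered by the mean over 6 libraries, with IGF-1 libraries drawn above controls in each row. Eno1, Ldha, Pgk1 and Tpi1 lie between 107 and 243 in the 6 libraries, and Aldoa, Aldoc, Pfkfb4, Ndrg1 and Vegfa at 1.99 or below.

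Other genes of the same pathways, in 6 lists, held 0 called genes in either direction, where 0.497% of all genes tested were called. Of 20 further glycolysis and pyruvate genes tested 13 were positive, with a median of 0.07. Pdk3, another kinase of pyruvate dehydrogenase, was at 28.5 ± 1.57 CPM with IGF-1 and 17.4 ± 1.75 CPM in controls (0.71, SE 0.17, adjusted p = 0.125), with groups that did not overlap. Its relative Pdk2 was at 3.29 ± 0.59 CPM with IGF-1 and 7.41 ± 4.94 CPM in controls (-1.17, SE 0.50, adjusted p = 0.396). The Pdk2 groups overlapped, since control library 2, at 2.63 CPM, lay below every IGF-1 library. After Pdk3 and Pdk2 the smallest p belonged to the mitochondrial pyruvate carrier subunit Mpc1 (0.32, SE 0.14) and the mutase Bpgm (0.29, SE 0.15). All 4 hexose transporters tested beside the members were negative, namely Slc2a8 (-0.76, SE 0.28), Slc2a6 (-0.30, SE 0.16), Slc2a5 (-0.69, SE 1.47) and Slc2a9 (-0.18, SE 0.44).

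The pentose phosphate pathway, which branches from phosphorylated glucose, was positive in 6 of 7 genes (median 0.16), led by its entry enzyme G6pdx at 279 ± 35.6 CPM with IGF-1 and 216 ± 2.62 CPM in controls (0.37, SE 0.13, adjusted p = 0.267). Rpe (0.31, SE 0.18), Pgd (0.16, SE 0.14) and Tkt (0.15, SE 0.13) followed. Of 16 genes of the tricarboxylic acid cycle 12 were positive (median 0.10), and the smallest p belonged to the succinyl-CoA ligase subunits Suclg2 (0.51, SE 0.17), Sucla2 (0.29, SE 0.12) and Suclg1 (0.30, SE 0.13) and the malate dehydrogenase Mdh2 (0.35, SE 0.14). In these 4 the groups did not overlap. Among 8 other HIF pathway factors 3 were positive (median -0.02), with Hif1an, the asparagine hydroxylase that restrains HIF1, at 36.9 ± 1.13 CPM with IGF-1 and 51.0 ± 13.2 CPM in controls (-0.46, SE 0.19, adjusted p = 0.352). Os9 (-0.27, SE 0.12), Egln2 (-0.23, SE 0.14) and the ubiquitin ligase subunit Vhl (0.11, SE 0.20) had the next smallest p.

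Of a further 31 HIF1 targets 18 were positive and 13 negative (median 0.07). The peptide hormone gene Adm was at 6.90 ± 2.60 CPM with IGF-1 and 16.3 ± 2.66 CPM in controls (-1.24, SE 0.31, adjusted p = 0.141), and the transferrin receptor gene Tfrc at 60.4 ± 8.0 CPM with IGF-1 and 42.0 ± 1.08 CPM in controls (0.52, SE 0.14, adjusted p = 0.174). Fam162a was at 99.8 ± 9.48 CPM with IGF-1 and 72.8 ± 3.15 CPM in controls (0.46, SE 0.12), and Pnrc1 at 63.2 ± 1.90 CPM with IGF-1 and 88.0 ± 10.8 CPM in controls (-0.48, SE 0.13). The groups of these 4 genes did not overlap, Adm and Pnrc1 lying below the controls and Tfrc and Fam162a above.

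**Figure D5:**
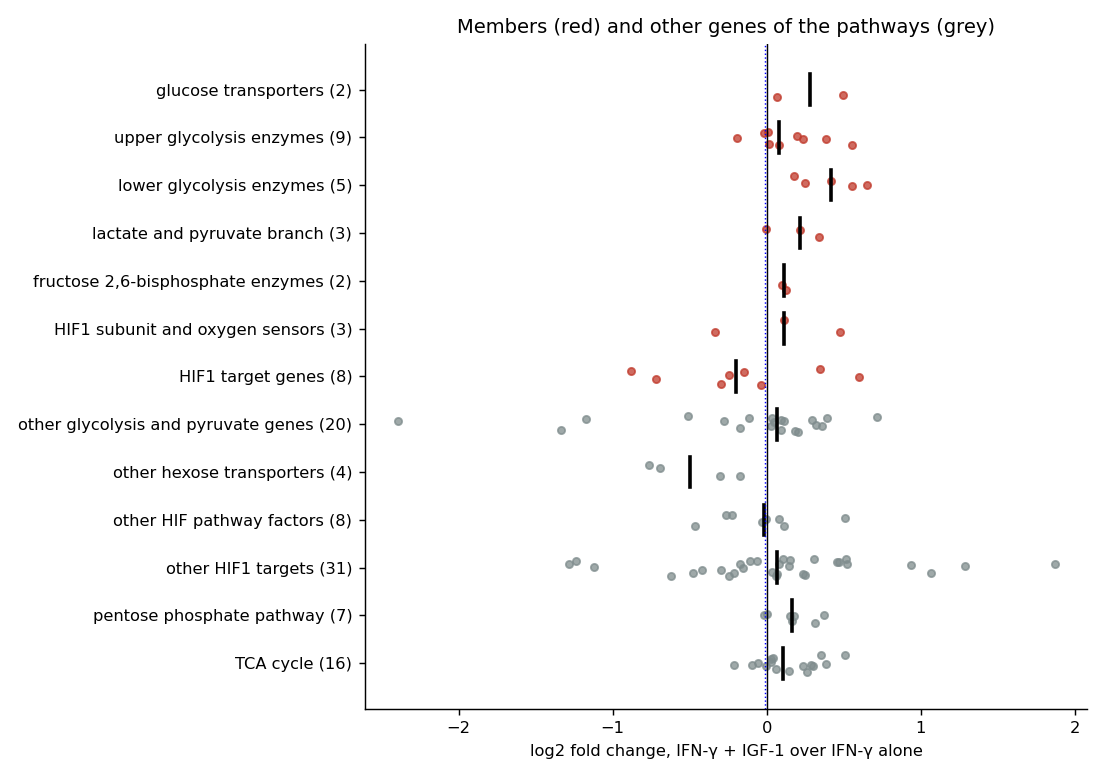
Log2 fold change, cultures with IGF-1 over those without, of the 32 genes by role (red) and of other tested genes of the pathways (grey), with the number of genes in brackets. Black ticks are medians and the dotted line is the median of all genes tested (-0.01). The lower-glycolysis median is 0.41 and that of the HIF1 targets -0.20.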

How the data were processed

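Per the labels' protocols, SMART-Seq HT libraries were made from lysed ILC3s, 3 with IGF-1 and 3 controls, grouped by title. The authors deposited a table of counts by gene, not normalized, and all 6 of its sample columns were used. The submitters' processing notes name GRCm39 as the build and featureCounts 1.5.3, SAMtools 1.15.1, HISAT2 2.2.1 and fastp 0.23.2 as tools. Annotation release, strand setting and handling of multi-mapping reads were not given in the sources used here, so overlapping genes (Hk1 and Hk1os, for example) and near-identical copies cannot be told apart with certainty.

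Genes were kept by edgeR's filterByExpr (minimum count 10, minimum total 15), which removed 0.0806% of counts. Differences were tested across all 13483 genes with edgeR 4.0.16 in R 4.3.3 (TMM, glmQLFit, glmQLFTest, group as the only term, Benjamini-Hochberg adjustment at 0.05). The test was checked on simulated counts. The SE is the size of the log2 fold change divided by the square root of F. CPM use TMM-scaled library sizes, and ratios add 0.5 CPM. Libraries of a group differed by a chi-square of 37.0 to 82.8 per degree of freedom, so none was a copy of another in its group. This does not show whether they came from separate animals or cultures. Levels per length use GENCODE M21 exon lengths (GRCm38), matched by gene name or RefSeq synonym. An exact permutation test of 3 against 3 cannot go below p = 0.1 and was not run. Alternatives included DESeq2 1.42.0 and limma-voom (limma 3.58.1). Reads were PCR-amplified without molecular identifiers, so they are not independent molecules.

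The members and lists were chosen with earlier results of these data known. Values per library are given for members with an unadjusted p under 0.05 or groups without overlap, the most abundant of each role, and Hif1a, Slc2a1, Hk2, Pfkfb3, Ldha and Pdk1. Those of Slc2a3 and Egln3 were added after their values were seen. From each other list up to 4 genes with the smallest p are named. The values of some marker genes are not reported here.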

Additional observations from a re-analysis of the deposited data

How the results depend on the processing

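Under 15 alternatives the 32 genes gave 474 log2 fold changes, of which 430 kept sign and side of the threshold, 11 passed it and 33 turned sign. The filter at 10 CPM in 3 libraries removed 6 members (Pfkm, Aldoa, Aldoc, Pfkfb4, Vegfa and Ndrg1).

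Over all genes 31 were called higher and 36 lower. These counts were 171 and 258 of 23260 genes with no filter, and 63 and 115 of 8625 genes with the 10 CPM filter. They were 200 and 256 with DESeq2, and 57 and 87 at an adjusted p under 0.1, while limma-voom called 60 lower. Among members, 3 were called higher with no filter (Gapdh, Pgk1 and Ero1a), 2 with the 10 CPM filter (Pgk1 and Ero1a), 3 higher and 1 lower with DESeq2 (Pgk1, Ero1a, Gapdh and Mxi1), and 1 at an adjusted p under 0.1 (Pgk1). The cause of these differences was not tested.

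No label says that the replicate numbers mark a shared mouse or day, so the numbers were not taken as pairs. Same-numbered libraries deviated together with correlations of -0.08, -0.02 and 0.11, and differently numbered ones with -0.13 to 0.13. With 3 libraries a group, these values cannot decide whether libraries were paired. With the replicate number as a block, edgeR called 3 genes higher and 5 lower and 0 members. DESeq2 with the block called 151 genes higher, 217 lower and 2 members higher (Pgk1 and Ero1a).

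With 1 library left out, 0 to 24 genes were called higher and 0 to 31 lower. Every library except control library 1 moved these counts by over 1.5 times (without IGF-1 library 1 none was called), and 0 members were called in each. Members with an unadjusted p under 0.05 and a positive value numbered 3 to 9, with 4 without IGF-1 library 2 or control library 2 and 3 without control library 3. The median of the 32 genes ran from 0.03 to 0.17 with 18 to 25 positive. Pgk1, Gapdh, Ero1a and Mxi1 kept an unadjusted p under 0.05 in all 15 fits, with adjusted p from edgeR of 0.103 to 0.422, 0.0717 to 0.605, 0.0933 to 0.458 and 0.175 to 0.523 when 1 library was left out.

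Pdk1 was 0.0024 under upper quartile scaling, Hk1 -0.015 and Pfkp -0.014 under library size scaling, and Hk1 -0.0025 under the 10 CPM filter. Pfkp was -0.0087 and Aldoa 0.073 with limma-voom, -0.0094 and 0.12 with the block in edgeR, and -0.0093 and 0.12 with the block in DESeq2. With 1 library left out the ranges were -0.042 to 0.20 for Slc2a1, -0.18 to 0.29 for Hk1, -0.33 to 0.0087 for Pfkm, -0.21 to 0.12 for Pfkp, -0.38 to 0.49 for Aldoa, -0.014 to 1.12 for Aldoc, -0.054 to 0.058 for Pdk1, -0.045 to 0.22 for Pfkfb3, -0.10 to 0.38 for Pfkfb4, -0.22 to 0.081 for P4ha1 and -0.56 to 0.20 for Ndrg1.

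With 3 libraries a group and SE of 0.12 to 0.97 on the log2 scale, the smallest adjusted p of a member was 0.0940 (Pgk1, edgeR). Aldoa, Aldoc, Pfkfb4, Vegfa and Ndrg1, all under 10 CPM, had the widest intervals.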
